A study of Mus musculus with 16 samples.

Results

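In mouse muscle cells, 4522 genomic regions carried a RUNX1 peak in proliferating myoblasts and a MyoG peak in early myotubes, with no MyoD or c-Jun peak in the myoblasts. They were found by merging all peaks of 4 deposited ChIP-seq peak lists (RUNX1, MyoD, c-Jun and MyoG) that overlapped by at least 1 bp on chromosomes 1 to 19 of the mouse build mm9. Of the 97753 merged regions, those with RUNX1 and MyoG alone made up 4.63%. Presence and absence of peaks chose these regions, so their number, scores, widths and nearness to peaks are given as a description, with no test.

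ChIP-seq sequences the DNA that an antibody against a protein pulls down from fixed chromatin. All cells were primary cultures from the gastrocnemius muscle of wild-type C57BL/6 mice that were 2 to 3 weeks old. Myoblasts kept for 3 days in proliferation medium served for RUNX1, MyoD and c-Jun. MyoG was precipitated from cells that then spent 24 hours in differentiation medium with low serum. Each of these 4 groups had 2 samples and was matched by a control group of 2 samples, 16 samples in all. The control antibody was rabbit non-immune serum in the RUNX1 experiment and IgG in the others. Per the labels, the samples of a factor came from separate biological replicates, but only 1 peak list per factor was used here. The spread between cultures, the depth of the libraries and the values of the controls were therefore not analysed here. Values given by chromosome below are parts of these same lists, so they do not stand for replicates. The lists for RUNX1, MyoD and c-Jun were matched by name, and the list named with an abbreviation was taken as MyoG by elimination.

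RUNX1 is a DNA-binding transcription factor of the Runt family that works with the partner CBFB and is known best from blood cell development. In muscle it is known as a gene that denervation or injury switches on. MyoD and MyoG (myogenin) are basic helix-loop-helix factors that bind E-box sequences with E-protein partners. MyoD acts in committed myoblasts, and MyoG rises when they leave the cell cycle and fuse into myotubes. c-Jun is a subunit of AP-1, a factor that is active in growing cells. RUNX1 and MyoG were mapped at different stages here, so a region with both peaks does not show that both proteins sat there at the same time.

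The regions were simple in make-up. A single RUNX1 peak and a single MyoG peak formed 4379 of them (96.8%), and 139 (3.07%) held more than 1 MyoG peak. Only 6 held more than 1 RUNX1 peak. The median region was 1022 bp wide, with quartiles of 805 and 1357 bp. Its RUNX1 peak had a median width of 960 bp, and its MyoG peak one of 619 bp. In the 139 regions with several MyoG peaks, neighbouring MyoG centres lay a median of 813 bp apart (range 481 to 2323 bp), and the median region was 1837 bp wide, against 998 bp with 1 MyoG peak.

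The score that the peak caller wrote for each peak measures the strength of the call, and it was compared only within 1 list. The lowest score in each list was 50.01. Many peaks were tied at 3100, near the top of the scale. In the regions with RUNX1 and MyoG alone, RUNX1 scores ran from 50.06 to 3165, with a median of 153 and quartiles of 83.9 and 346. MyoG scores ran from 50.03 to 2499, with a median of 131 and quartiles of 79.3 and 257. Both medians lay below the middle of their lists, RUNX1 at percentile 45.0 of all RUNX1 peaks and MyoG at percentile 38.2 of all MyoG peaks.

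RUNX1 at these regions scored higher than at regions with RUNX1 alone and close to regions that also held MyoD. Regions with RUNX1 alone (n = 10565) had a median RUNX1 score of 106. The median was 166 at regions with RUNX1, MyoD and MyoG (n = 6615), 400 with RUNX1, c-Jun and MyoG (n = 2586) and 343 with all 4 factors (n = 10532). Medians taken on each chromosome ran from 134 to 192 for RUNX1 with MyoG alone and from 99.0 to 122 for RUNX1 alone, so these ranges did not overlap. Against regions with RUNX1, MyoD and MyoG, whose chromosome medians ran from 147 to 191, the ranges overlapped, and the regions without MyoD were higher on 5 of 19 chromosomes. The regions with c-Jun had the higher RUNX1 median on 19 of 19 chromosomes.

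MyoG scores gave another order. The median of 131 lay above the 95.7 of regions with MyoG alone (n = 16259) and the 112 of regions with RUNX1, c-Jun and MyoG, the latter on 18 of 19 chromosomes. It lay far below the 597 of regions with RUNX1, MyoD and MyoG and the 703 of regions with all 4 factors, and also below the 237 of regions with MyoD and MyoG (n = 12071). Chromosome medians of MyoG ran from 118 to 150.3 for RUNX1 with MyoG alone, from 91.0 to 103 for MyoG alone and from 486 to 666 with RUNX1, MyoD and MyoG. None of these 3 ranges overlapped. Regions that differed in MyoD were thus close in RUNX1 score and far apart in MyoG score.

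**Figure D1:**
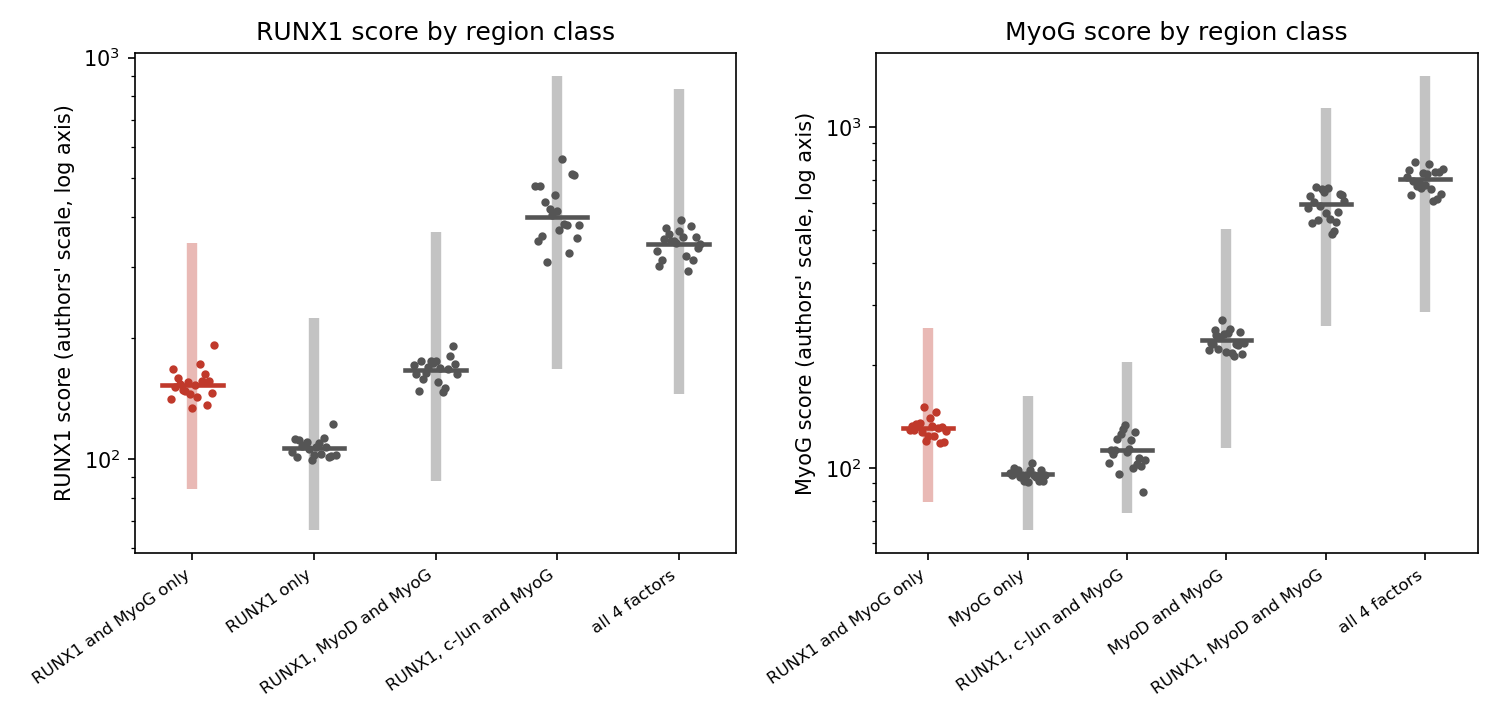
RUNX1 score (left) and MyoG score (right) on log axes for classes of merged regions, named by the factors they hold. The thick line is the median over regions, the pale bar runs between the quartiles, and each point is the median on 1 of 19 chromosomes. Regions with RUNX1 and MyoG alone (red) sit at medians of 153 and 131, close to RUNX1, MyoD and MyoG for RUNX1 (166) and well below it for MyoG (597).

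The gap in MyoG score was present at each level of RUNX1. Where RUNX1 scored 50 to 100, the median MyoG score was 124 without MyoD and c-Jun (n = 1505) and 475 with MyoD (n = 1993). Where RUNX1 scored 400 or more, it was 139 (n = 977) and 800.0 (n = 1504). MyoG therefore differed little between weak and strong RUNX1 peaks in the regions without MyoD, and more in those with it. Across the 4522 regions the rank correlation of the scores was 0.058 (Spearman's rho). It was 0.12 across regions with RUNX1, c-Jun and MyoG, which also lack MyoD. Across regions with RUNX1, MyoD and MyoG it was 0.19, and across those with all 4 factors 0.28. These correlations are across regions of the same pair of lists and are descriptions only.

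Few of the regions held a strong peak. A RUNX1 score of at least 1000 was found in 258 of 4522 (5.71%), where 10.1% of all regions with RUNX1 reached it. The share was 6.23% with RUNX1, MyoD and MyoG and 3.02% with RUNX1 alone. It was 22.3% with RUNX1, c-Jun and MyoG and 20.3% with all 4 factors. A MyoG score of at least 1000 was found in 62 (1.37%), where 13% of all regions with MyoG reached it. For comparison, 29.9% of regions with RUNX1, MyoD and MyoG and 0.203% of regions with MyoG alone reached that MyoG score. Both scores were under 100 in 594 regions, and both were 1000 or more in 5. In the top 25% of both lists lay 83 regions (1.84%), and in the bottom 25% of both lay 406 (8.98%). Another 239 (5.29%) had RUNX1 in the top and MyoG in the bottom 25%, and 84 (1.86%) the opposite. Taken singly, RUNX1 was in the top 25% of its list in 861 regions and in the bottom 25% in 1212. For MyoG these totals were 359 and 1432. Whether the counts of 239 and 84 differ beyond these unequal totals was not tested. None of the counts that join both scores was compared with other classes, so they are not shown to be particular to these regions.

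**Figure D2:**
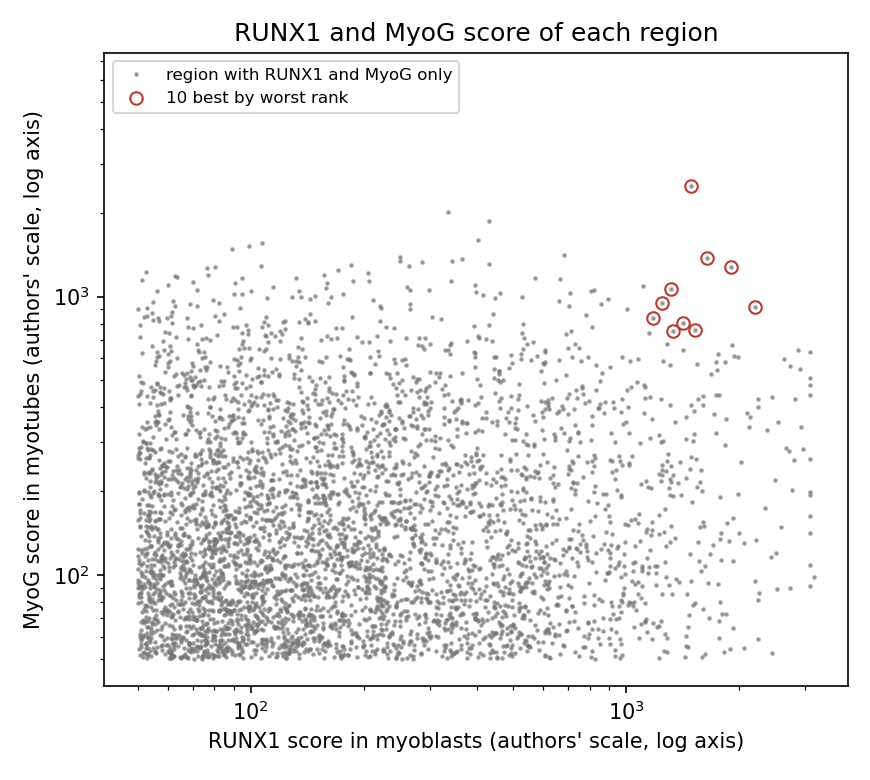
RUNX1 score in myoblasts against MyoG score in myotubes, both on log axes, with 1 point for each of the 4522 regions. The scores show little relation (Spearman's rho 0.058), and the 10 circled regions, chosen by the worse of their ranks in RUNX1 and MyoG score, hold the corner where both are high.

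The 10 regions with the best worst rank had RUNX1 scores from 1179 to 2211 and MyoG scores from 752 to 2499. The first lay on chromosome 8 (chr8:122797310-122801266), with a RUNX1 score of 1905, a MyoG score of 1276 and 2 MyoG peaks. At 3957 bp it was the widest of the 10. The second, chr5:98595859-98597185, had the highest RUNX1 score of the 10 (2211), a MyoG score of 918 and centres 56.5 bp apart. The third, chr12:4482826-4484562, had scores of 1648 for RUNX1 and 1376 for MyoG. Its nearest MyoD peak was 45283 bp and its nearest c-Jun peak 31624 bp away.

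The fourth, chr2:152896940-152898330, held the highest MyoG score of all 4522 regions, 2499, with a RUNX1 score of 1489 and centres 203.5 bp apart. The sixth, chr2:38536986-38538898, had scores of 1318 for RUNX1 and 1068 for MyoG. Both scores passed 1000 in these 2 regions on chromosome 2 and in those on chromosomes 8 and 12. One more region had both above 1000 but a lower RUNX1 rank, 217 of 4522. It lay at chr15:64752197-64754892, with scores of 1113 and 1089, and is named here outside the rule, chosen with its values known. Its nearest MyoD peak was 271443 bp and its nearest c-Jun peak 164716 bp away.

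The other 5 of the 10 had MyoG scores between 752 and 950.5. They lay at chr4:147475620-147476985, chr3:122122189-122123509, chr4:41705353-41706780, chr5:67009039-67010544 and chr7:134851102-134852810. Their RUNX1 scores were 1419, 1530.2, 1338, 1245 and 1179 in that order. In all 10, RUNX1 and MyoG centres lay between 36.5 and 269.5 bp apart. The nearest MyoD peak was between 1583 and 45283 bp away.

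The extremes of the 2 scores fell in different regions. The highest RUNX1 score, 3165, belonged to chr19:36810629-36811654, whose MyoG score was 97.96. A further 10 regions sat at exactly 3100 for RUNX1 and cannot be ordered. The rule for ties took chr16:11175282-11177049, with a MyoG score of 510.2, and chr1:36153567-36155089, with one of 91.3. The next MyoG scores after the highest were 2019 at chr8:113186456-113187717 and 1861 at chr2:30327103-30330187, where RUNX1 scored 335 and 433. A c-Jun peak ended 241 bp from the latter region.

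RUNX1 regions of myoblasts without MyoD and c-Jun held MyoG more often where RUNX1 was strong. Of the 15087 such regions, 4522 (30.0%, 95% Wilson interval 29.2 to 30.7%) had a MyoG peak. The same share over all regions with RUNX1 was 58.7%. Without MyoD and c-Jun, the share was 23.2% (22.2 to 24.2%) at RUNX1 scores of 50 to 100. It was 30.7% (29.2 to 32.2%) at 100 to 200 and 36.2% (34.3 to 38.1%) at 200 to 400. It was 40.0% (37.7 to 42.2%) at 400 to 1000 and 44.7% (40.7 to 48.8%) at 1000 or more. These intervals cover counting error alone and treat regions as separate draws. The share at 400 or more was above that at 50 to 100 on 19 of 19 chromosomes.

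Peak width moved with the RUNX1 score. The median RUNX1 peak was 756 bp wide at scores of 50 to 100 and 1254 bp at 400 or more. When MyoG was counted only with its centre within 150 bp of the RUNX1 centre, the share was 16.2% (15.4 to 17.2%) in the weakest class, 20.4% (19.1 to 21.7%) and 20.1% (18.6 to 21.8%) in the middle classes and 20.7% (19.2 to 22.4%) at 400 or more. The rise from the weakest class to 400 or more was then 4.50 percentage points instead of 17.9. This centre rule was added after the result was seen.

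MyoG regions held RUNX1 more often where MyoG was strong. The score classes of the 2 lists are not on a common scale, so these shares are not ranked against those by RUNX1 score. Of 20781 MyoG regions without MyoD and c-Jun, 21.8% (21.2 to 22.3%) held RUNX1, against 41.6% of all regions with MyoG. The share was 16.5% (15.8 to 17.2%) at MyoG scores of 50 to 100, 21.6% (20.6 to 22.6%) at 100 to 200, 29.3% (27.7 to 30.9%) at 200 to 400 and 43.1% (40.4 to 45.8%) at 400 to 1000. At 1000 or more, RUNX1 was present in 62 of 95 regions (65.3%, 55.3 to 74.1%). The share at 400 or more was above that at 50 to 100 on 19 of 19 chromosomes. With centres within 150 bp, it was 9.63% (9.07 to 10.2%) in the weakest class and 29.4% (27.1 to 31.9%) at 400 or more, a rise of 19.8 percentage points instead of 28.1. Median MyoG peak widths in these classes were 535 and 739 bp.

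**Figure D3:**
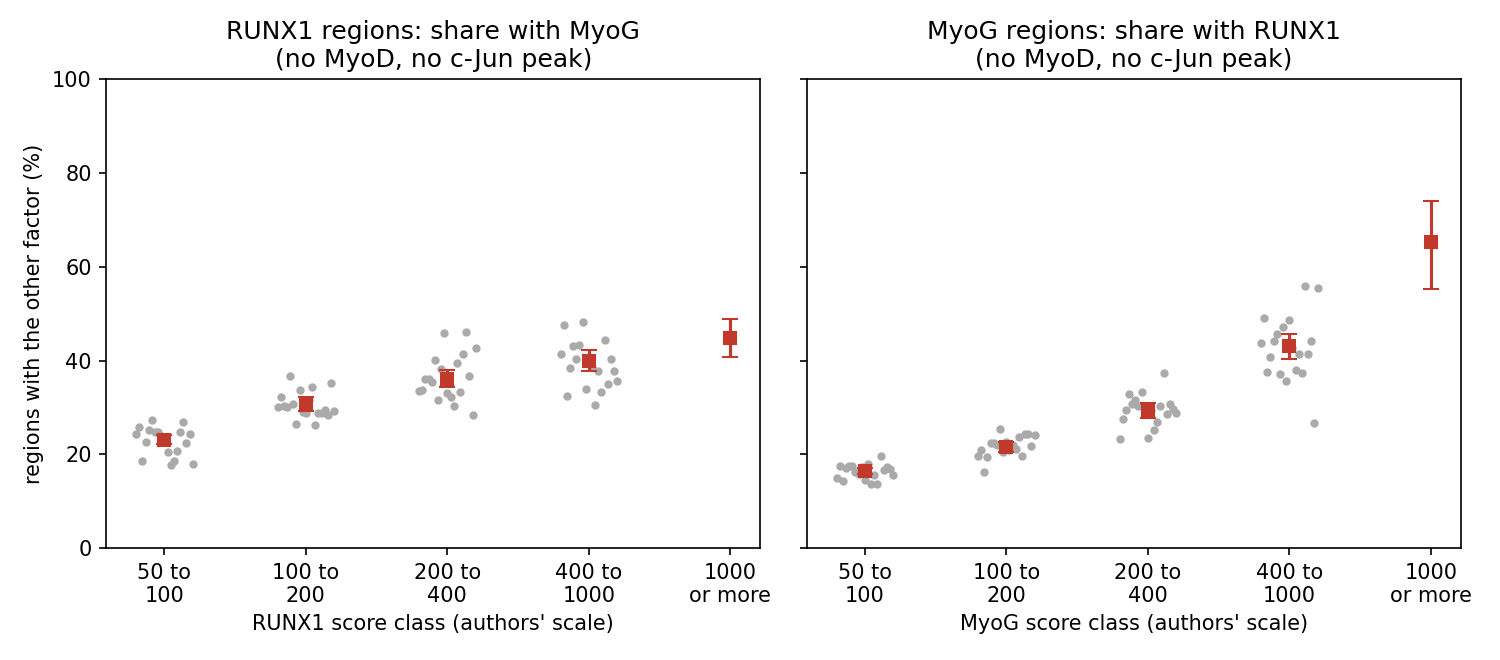
Share of regions without MyoD and c-Jun that hold the other factor, by score class of RUNX1 (left) or MyoG (right). Squares are shares over all regions with 95% Wilson intervals, and points are single chromosomes (not drawn at 1000 or more, where a chromosome holds few regions). From the weakest to the strongest class the share goes from 23.2% to 44.7% on the left and from 16.5% to 65.3% on the right. Any overlap of 1 bp counts here, and stronger peaks were wider. With centres within 150 bp (not drawn), scores of 50 to 100 and of 400 or more gave 16.2% and 20.7% for RUNX1. For MyoG they gave 9.63% and 29.4%.

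The MyoG peak mostly lay inside the RUNX1 peak. It did so wholly in 3212 regions (71.0%, 69.7 to 72.3%), against 49.1% (47.9 to 50.3%) of the regions with RUNX1, MyoD and MyoG, where MyoG peaks were wider (median 741 bp). The share was 79.8% (78.2 to 81.3%) with RUNX1, c-Jun and MyoG, above that of the regions without c-Jun, and 54.6% (53.7 to 55.6%) with all 4 factors. A RUNX1 peak lay wholly inside the MyoG peak in 69 regions (1.53%). Peak centres were a median of 98.5 bp apart, with quartiles of 39.5 and 233 bp. Centres were within 50 bp in 30.7% of regions and within 150 bp in 62.1% (60.7 to 63.5%). Of the 23999 regions where peaks of both factors overlapped each other, 62.8% met the 150 bp limit. Peak positions and centre distances, here and below, leave out regions without such an overlap. These were 44 with RUNX1, MyoD and MyoG, 50 with RUNX1, c-Jun and MyoG and 162 with all 4 factors.

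Centre distance was larger for wider RUNX1 peaks. Part of this is set by the rule, since midpoints of overlapping peaks can lie far apart only where a peak is wide. The median was 48.5 bp for RUNX1 peaks under 750 bp, 59 bp for those of 750 to 1000 bp, 176 bp for those of 1000 to 1500 bp and 355 bp for wider ones. At matched RUNX1 width, the order of the classes depended on the width. Under 750 bp, centres lay within 150 bp in 90.9% (88.9 to 92.6%) of the regions with RUNX1 and MyoG alone, in 88.2% (86.4 to 89.8%) of those that also held MyoD, in 84.8% (79.4 to 89.0%) with c-Jun and in 86.5% (84.6 to 88.2%) with all 4 factors. At 750 to 1000 bp the shares were 82.4% (80.4 to 84.2%), 84.2% (82.7 to 85.6%), 82.4% (79.3 to 85.1%) and 83.1% (81.8 to 84.3%) in the same order. At 1000 to 1500 bp they were 42.6% (40.1 to 45.2%), 48.7% (46.4 to 51.0%), 48.8% (45.6 to 52.0%) and 56.9% (55.2 to 58.6%). For wider RUNX1 peaks they were 20.7% (17.9 to 23.8%), 23.2% (20.6 to 26.0%), 22.0% (19.1 to 25.1%) and 28.3% (26.5 to 30.1%). The scores of the 2 factors went opposite ways. Centres lay within 150 bp in 70.1% (67.7 to 72.4%) of the regions with a RUNX1 score of 50 to 100 and in 50.5% (47.3 to 53.6%) with one of 400 or more. For MyoG the shares were 58.5% (56.1 to 60.8%) and 66.0% (62.1 to 69.6%). Peak width rose with score in both lists, and these shares by score were not taken at matched width.

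**Figure D4:**
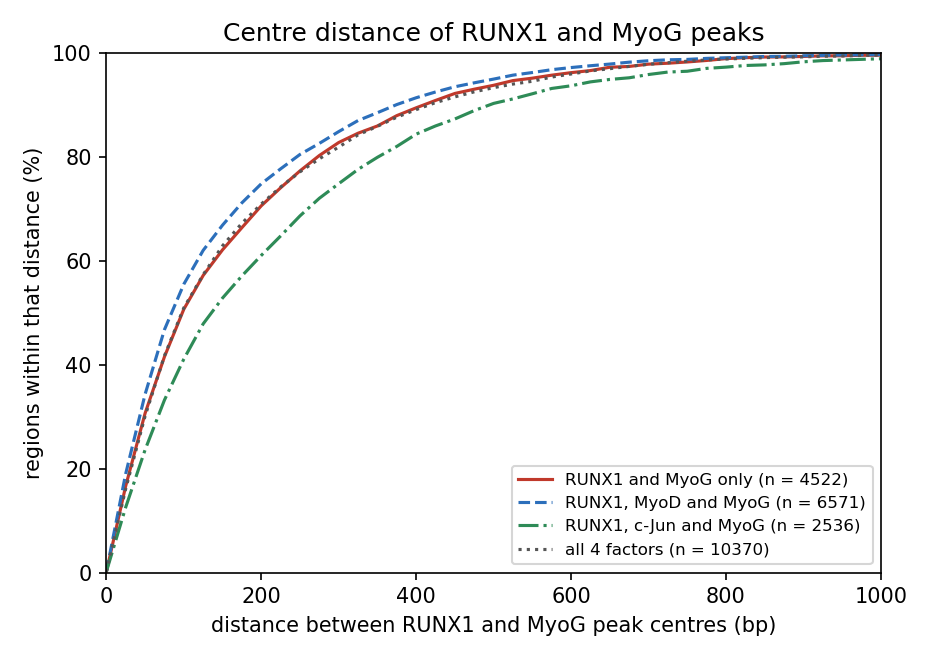
Cumulative share of regions by the distance in bp between the centres of their closest overlapping RUNX1 and MyoG peaks. Regions with RUNX1 and MyoG alone (red) follow those with all 4 factors, with medians of 98.5 and 97.5 bp, and lie between those with MyoD (84 bp) and those with c-Jun (139 bp).

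Few regions sat at the edge of the overlap rule. The smallest overlaps were 1 bp at chr9:61907577-61908870, 2 bp at chr7:19658669-19660048 and 3 bp at chr5:93031855-93033258, with RUNX1 scores of 113, 58.8 and 127 and MyoG scores of 57.9, 58.3 and 54.1. An overlap of 100 bp or less was found in 39 regions. Just outside the rule, the RUNX1 peak at chr16:21859518-21860203, with a score of 56.1, had a MyoG peak 5 bp away. In all, 104 regions with RUNX1 alone had a MyoG peak within 100 bp.

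MyoD and c-Jun peaks were absent from the regions by the rule, and their nearness outside was close to that around MyoG alone. The nearest MyoD peak was a median of 7439 bp away and the nearest c-Jun peak 9385 bp. A MyoD peak lay within 10 kb of 57.5% (56.1 to 59.0%) of the regions, against 48.8% (47.8 to 49.7%) of regions with RUNX1 alone, 56.3% (55.6 to 57.1%) of those with MyoG alone and 52.6% of all regions without MyoD. For c-Jun the shares were 51.9% (50.5 to 53.4%), 46.9% (45.9 to 47.8%) and 50.2% (49.4 to 50.9%), and 50.3% for all regions without c-Jun. The share with MyoD was above that of RUNX1 alone on 18 of 19 chromosomes, and the share with c-Jun on 17 of 19. Against MyoG alone the counts were 15 of 19 for MyoD and 13 of 19 for c-Jun. At 400 or more for RUNX1, MyoD lay within 10 kb of 53.7% of the regions and of 45.4% of those with RUNX1 alone. Other classes with RUNX1 and MyoG also had such neighbours. MyoD lay within 10 kb of 59.2% (57.3 to 61.1%) of regions with RUNX1, c-Jun and MyoG. c-Jun lay within 10 kb of 56.3% (55.1 to 57.5%) of regions with RUNX1, MyoD and MyoG.

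**Figure D5:**
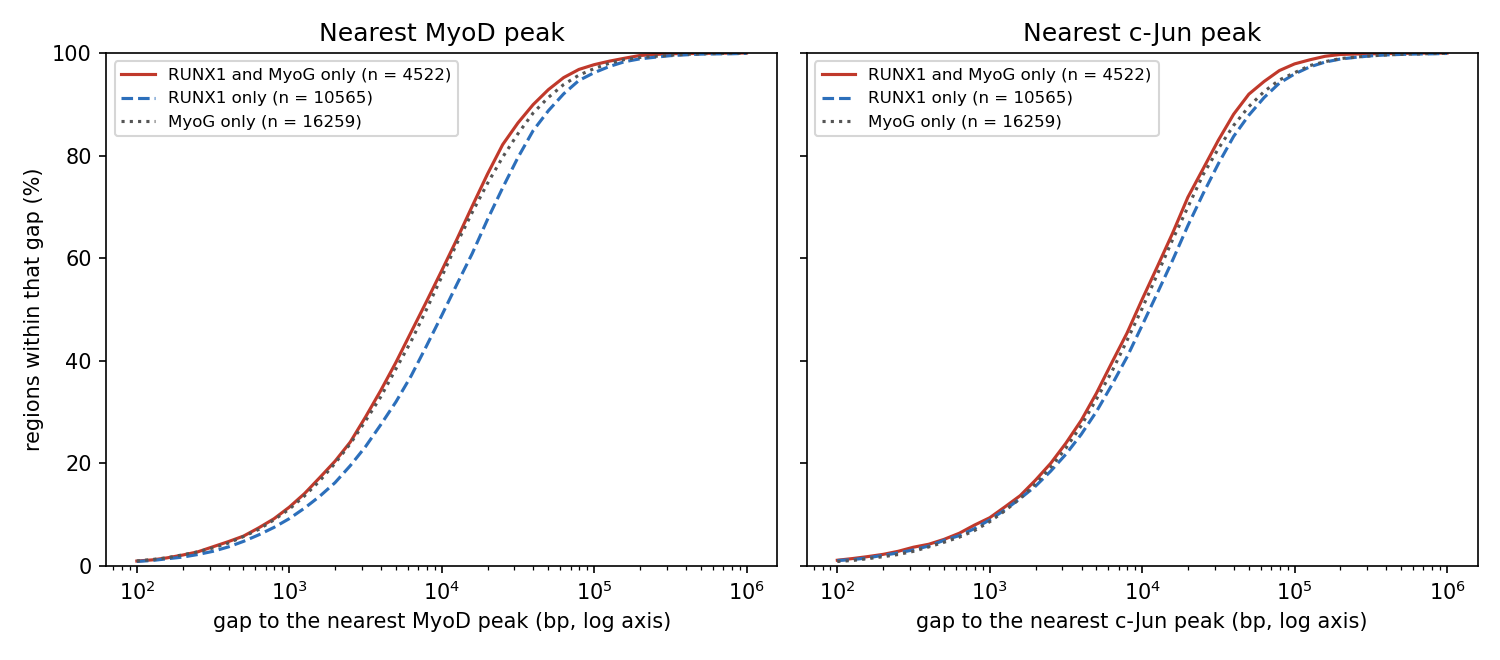
Cumulative share of regions by the gap in bp, on a log axis, to the nearest MyoD peak (left) and c-Jun peak (right) outside the region. Regions with RUNX1 and MyoG alone (red) run close to MyoG alone and above RUNX1 alone. At 10 kb the MyoD shares are 57.5%, 56.3% and 48.8%.

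A few regions were only just free of MyoD and c-Jun. One of these factors had a peak within 500 bp of 408 of the 4522 regions. The closest was a MyoD peak 1 bp from chr7:109396942-109399753, where RUNX1 scored 811 and MyoG 112. Shares at 500 bp were near those of regions with RUNX1 alone and with MyoG alone. For MyoD they were 5.73% here, 4.70% with RUNX1 alone and 5.68% with MyoG alone. For c-Jun they were 5.13%, 4.93% and 4.56% in the same order. MyoD lay within 500 bp of more of the regions with RUNX1, c-Jun and MyoG, 7.50% (6.55 to 8.58%). c-Jun lay within 500 bp of 5.82% (5.28 to 6.41%) of those with RUNX1, MyoD and MyoG. At the other end, 1395 regions had neither factor within 10 kb and 154 had neither within 50 kb. The counts of 408, 1395 and 154 join both factors and were not compared with other classes. The score medians of these 154 were 154 for RUNX1 and 111 for MyoG. MyoG scores varied little with the gap to MyoD. The MyoG median was 134 within 1 kb (n = 516) and 116 beyond 50 kb (n = 324). RUNX1 medians were 149 and 178. By the gap to c-Jun, at the same distances, MyoG medians were 128 (n = 423) and 117.5 (n = 365). RUNX1 medians then went the other way, from 162 to 149.

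Regions bound by all 4 factors were common in the neighbourhood. One lay within 50 kb of 61.0% (59.5 to 62.4%) of the regions with RUNX1 and MyoG alone, of 52.5% (51.6 to 53.5%) with RUNX1 alone and of 58.4% (57.6 to 59.1%) with MyoG alone, against 54.6% of all regions other than those with all 4 factors. The share was as high or higher in the most similar classes. It was 63.3% (62.1 to 64.4%) with RUNX1, MyoD and MyoG and 61.1% (59.2 to 63.0%) with RUNX1, c-Jun and MyoG. Neighbourhoods also differed in peak density. The median number of other regions within 50 kb was 9 around RUNX1 with MyoG alone, 7 around RUNX1 alone and 8 around MyoG alone. It was also 9 around RUNX1, MyoD and MyoG and around RUNX1, c-Jun and MyoG. The part of density in these shares was not tested. For RUNX1 with MyoG alone, the share was above that of RUNX1 alone on 18 of 19 chromosomes and above that of MyoG alone on 14.

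The regions were spread over all 19 chromosomes, from 139 on each of chromosomes 18 and 19 to 387 on chromosome 2. Their share of all merged regions ran from 3.54% on chromosome 3 to 5.48% on chromosome 5. Cutting the chromosomes into windows of 100 kb put them in 3541 windows, of which 2756 held 1 and 630 held 2. The fullest window, chr4:151400001-151500000, held 7 of its 18 merged regions. Beside them lay 5 regions with RUNX1, MyoD and MyoG, 3 with all 4 factors, 2 with MyoG alone and 1 with RUNX1 alone. RUNX1 scores of the 7 ran from 66.7 to 571 and MyoG scores from 100.4 to 1163. The strongest in both was chr4:151447422-151448504, with 571 for RUNX1, 1163 for MyoG and a MyoD peak 541 bp away.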

How the data were processed

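Each of the 4 deposited peak lists gave position, a name starting with MACS and a score, written by the authors' peak caller. CASAVA 1.7.0 and 1.8.2, Bowtie and mm9 are named in the submitters' processing notes. The sources used here do not give caller settings, the use of controls or whether replicates were joined. Without read counts, depth is unknown.

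Peaks on chromosomes 1 to 19 were merged at 1 bp of overlap. A region's score is its highest peak score per factor, and the centre is the peak's midpoint. Scripts (Python 3.11.15, numpy 2.4.6, scipy 1.17.1, matplotlib 3.10.9) were tested on simulated data. Members, lists and rules were chosen with earlier results of these data known. Named regions were the 10 with the best worst rank, the 3 highest in each score, the fullest 100 kb window and the edges of the overlap rule. Motif, promoter and gene list tests were not run, as the reference tables are of another build than the files. No sequence is printed and no gene is assigned.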

Additional observations from a re-analysis of the deposited data

How the results depend on the processing

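Of 51 alternative values, 37 stayed within the 95% interval of the reported value (for the number of regions, within 1.5 times) and 14 did not. The number of regions was 2809 with centres within 150 bp and between 3308 and 4685 otherwise. Scores of at least 100 in every list, which leave fewer peaks, gave medians of 267 (RUNX1) and 246 (MyoG), centres within 150 bp in 60.2%, MyoD within 10 kb of 47.8%, c-Jun within 10 kb of 44.1%, all 4 factors within 50 kb of 48.2% and MyoG at 28.8% of RUNX1 regions without MyoD and c-Jun. The rises by score class could not be computed there. With no MyoD or c-Jun peak within 500 bp, MyoD lay within 10 kb of 54.3% and c-Jun of 49.0%, lower by construction. Joining at 50% of the shorter peak gave c-Jun within 10 kb of 53.8%. Without peaks at 3100 or more, a setting chosen after seeing the data, all 4 factors lay within 50 kb of 58.1%. Counting a partner only with centres within 150 bp, also added later, cut the rise in share with score from 17.9 to 4.50 points for RUNX1 and from 28.1 to 19.8 for MyoG. The cause was not tested in these cases, except where named. Chromosome X changed no value beyond its interval.

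No paired analysis was possible because each factor has 1 list in which replicates are not separate. For the same reason, leaving out replicates was not run. The promoter and motif alternatives were not run. A missing peak does not show that a factor was absent, since the depth is unknown.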

Other observations

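Chromosome X, which lies outside the rule, held 82 regions with RUNX1 and MyoG alone among 1795 merged regions (4.57%), close to the 4.63% of chromosomes 1 to 19.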
